A study of Rattus norvegicus with 8 samples.

Results

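The circadian clock genes described here are 10 named genes of the striatal mRNA counts: Clock, Arntl, Per1, Per2, Per3, Cry1, Cry2, Nr1d1, Nr1d2 and Dbp. They were chosen by name, as the core loop of the clock and its best known output, out of 17337 genes listed. The choice was made with earlier results of these data known. All 10 passed the expression filter that left 12014 genes for testing. The counts came from the striatum of 8 male wild-type Sprague-Dawley rats, 4 that self-administered methamphetamine (METH) and 4 that self-administered saline. METH rats received 0.05 mg/kg per infusion in daily sessions of 2 h for 16 days, and saline rats were trained, catheterised and tested in the same way. The rats of both groups had learned to press a lever for food and were kept under 12 h of light and 12 h of dark. Both groups were selected for stable responding on the last days. More rats had started METH than saline self-administration, so the 4 kept were a smaller share of the METH starters. The time of day at which the brains were taken and the interval since the last session are not given in the sources used here. The age of the rats is not given there either.

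In a mammalian cell the clock is a loop of transcription. CLOCK and its partner BMAL1, the product of Arntl, bind E-box sequences and switch on the Per and Cry genes, whose proteins return to the nucleus and inhibit CLOCK and BMAL1. A second loop runs through Nr1d1 and Nr1d2, which encode the REV-ERB nuclear receptors that repress Arntl through ROR elements, and the PAR bZIP factor DBP drives further genes through D-boxes. Per1 and Per2 also respond to cyclic AMP, calcium and glucocorticoid signals outside the loop, and Per2 has been studied in the striatum for its part in responses to stimulant drugs.

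The members' own promoters were searched for the letters of such elements. RefSeq sequences of assembly GRCr8, which run from 250 bases before to 50 bases after an annotated start, covered 9 of the 10 genes in 11 windows (Cry1 was not among them). Both strands were searched for the E-box CACGTG, the related E-prime box CACGTT, the D-box TTATGTAA, the ROR element ANTAGGTCA and the cyclic AMP response element TGACGTCA. No match overlapped another. The 6 matches are printed 5′ to 3′ on the strand of the gene, with the matched letters in capitals. An E-prime box that lies on the other strand reads as its reverse complement.
Per2 D-box, chr9:99497158-99497205, minus strand: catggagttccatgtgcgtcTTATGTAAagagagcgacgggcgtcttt
Per2 E-prime box, chr9:99497030-99497075, minus strand: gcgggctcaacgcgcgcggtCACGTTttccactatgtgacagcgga
Cry2 E-prime box, chr3:98860624-98860669, minus strand: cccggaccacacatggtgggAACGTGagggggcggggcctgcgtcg
Nr1d1 E-prime box, chr10:84231961-84232006, minus strand: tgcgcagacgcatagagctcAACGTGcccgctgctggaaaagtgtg
Nr1d1 E-box, upstream of a second start, chr10:84229620-84229665, minus strand: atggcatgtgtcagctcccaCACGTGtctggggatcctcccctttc
Arntl ROR element, chr1:176766290-176766327, plus strand: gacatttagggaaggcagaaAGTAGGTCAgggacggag

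The E-prime box stood in 3 of the 11 windows and in 4.83% of all 33469 RefSeq windows, the E-box in 1 window against 6.42% of all, the D-box in 1 against 0.893%, and the ROR element in 1 against 0.657%. The cyclic AMP response element stood in 0 of the 11 and in 1.83% of all windows. These matches describe the letters near the annotated starts only. The single Per1 window held none of the 5 motifs.

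Total counts per rat lay between 18135939 and 21211920, and levels are given as CPM, the counts of a gene relative to the total of its library, after TMM scaling for differences in composition. At this depth 3 counts, taken as the limit of detection, correspond to 0.142 to 0.169 CPM. All 10 striatal projection neuron markers, such as Ppp1r1b and Drd1, were tested, and their summed level was 14830 to 15847 CPM in saline rats and 15644.5 to 19614 CPM in METH rats. Of these 10, 2 had an unadjusted p under 0.05, both higher (Ppp1r1b and Drd2), beside 6.26% of all genes tested. Saline rat 1 stood apart in the sum of the 5 listed markers of cortical excitatory neurons, at 75.4 CPM against 3.55 to 13.5 CPM in the other 7 rats. Most of that sum was Slc17a7 (65.8 CPM), and Neurod1 was not highest in this rat. METH rat 3 stood apart on the first principal component. Markers of the suprachiasmatic nucleus, the seat of the master clock, summed to 0.773 to 29.2 CPM in saline rats and to 2.99 to 19.7 CPM in METH rats, and its transcription factor Six6 had a median count of 0. The highest of these sums, in saline rat 2 and METH rat 4, were almost wholly Avp (28.2 and 18.3 CPM), and Vip was the lowest of its group in both. The 6 endothelial markers all had negative log2 fold changes, 3 of them with an unadjusted p under 0.05 (4.88% of all genes were lower at that limit), with summed levels of 460 to 663 CPM in saline rats and 446 to 473 CPM in METH rats. The 6 microglial markers were also all negative, 2 of them with an unadjusted p under 0.05 and 1, Cx3cr1, called lower, with sums of 236 to 275 CPM and 198 to 243 CPM. None of the 6 oligodendrocyte and 6 astrocyte markers and 1 of the 3 choroid plexus markers tested had an unadjusted p under 0.05. The part of all these cells in the results below was not tested, and in dissected tissue fewer cells of a type and less RNA per cell cannot be told apart.

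Per1 and Per2, 2 genes of the negative arm of the loop, rose in the striatum of METH rats. The other 8 clock genes did not pass the test, among them Per3, Cry1 and Cry2 of the same arm. The 2 called genes are 2 of the 10, against 0.516% of all genes tested, by the edgeR quasi-likelihood test with Benjamini-Hochberg adjustment (a call needs an FDR, the adjusted p, under 0.05 and an average log2 CPM over 1). The same 2 genes were the members with an unadjusted p under 0.05, both higher, beside 6.26% of all genes tested that were higher and 4.88% that were lower at that limit. They were also the 2 members whose METH rats lay wholly above the saline rats, a separation seen in 3.75% of all genes, while 0 members lay wholly below, against 2.65% of all genes. The median log2 fold change of the 10 members was 0.05, and that of all genes tested was -0.0055.

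**Figure D1:**
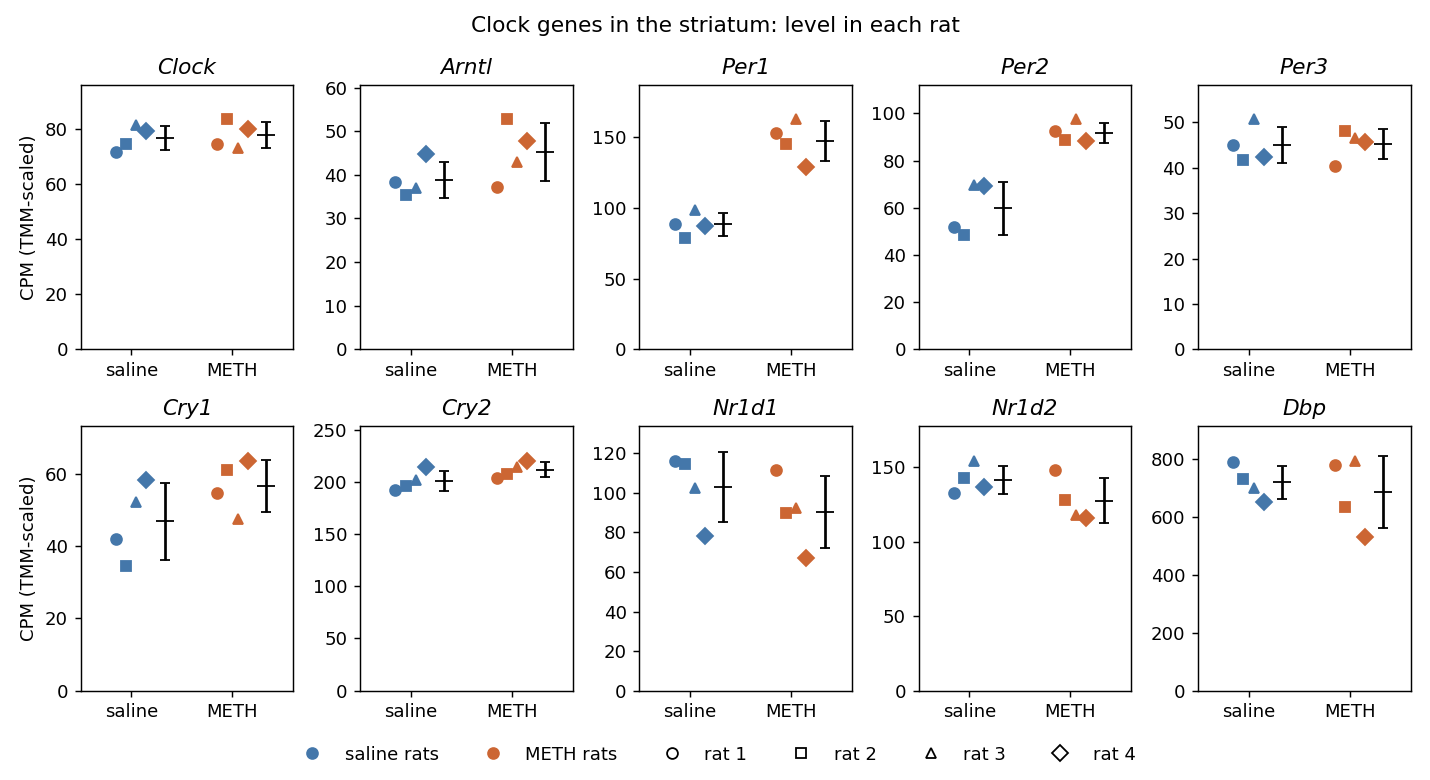
Level of each of the 10 clock genes (y axis, CPM on TMM-scaled libraries, from 0) in the 4 saline rats (blue) and the 4 METH rats (orange), with the rat number as the marker shape and the mean ± SD of 4 rats beside them. The groups are separate for Per1 (78.8 to 98.4 CPM against 129 to 163 CPM) and Per2 (48.5 to 69.8 CPM against 88.4 to 97.4 CPM) and overlap for the other 8 genes.

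Per1, an early responding member of the family, was at 88.6, 78.8, 98.4 and 87.4 CPM in saline rats 1 to 4 and at 153, 145, 163 and 129 CPM in METH rats 1 to 4. Every METH rat was above every saline rat, with METH rat 4 the lowest of the METH group and saline rat 3 the highest of the saline group. The group means were 88.3 ± 8.04 CPM (SD, n = 4) and 147 ± 14.1 CPM (SD, n = 4). The level in METH rats was 1.67 times that in saline rats (95% interval 1.46 to 1.91). On the log2 scale the change was 0.74 (± 0.09 SE, FDR = 0.00152 in the edgeR quasi-likelihood test), and Per1 had the 12th lowest p of all genes tested. The exact permutation test of its log2 CPM gave a two-sided p of 0.0286, the smallest that 4 rats against 4 allow. Per1 was called in all 8 fits that left out 1 rat, with log2 fold changes from 0.69 to 0.80. It was 0.74 without saline rat 1 and 0.69 without METH rat 3, the rats that stood apart.

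Per2, whose protein is the partner of CRY in the repressor complex, was at 51.8, 48.5, 69.8 and 69.0 CPM in saline rats 1 to 4 and at 92.5, 88.6, 97.4 and 88.4 CPM in METH rats 1 to 4. The METH rats lay close together above all saline rats, whereas the saline rats formed a lower pair, rats 1 and 2, and a higher pair, rats 3 and 4. The means were 59.8 ± 11.2 CPM (SD, n = 4) and 91.7 ± 4.23 CPM (SD, n = 4), a 1.53-fold higher level in METH rats (95% interval 1.29 to 1.82). On the log2 scale this was 0.62 (± 0.12 SE, FDR = 0.0305 in the edgeR quasi-likelihood test; exact permutation test, two-sided p = 0.0286). This call depended on single rats. Without saline rat 1, saline rat 2, METH rat 1, METH rat 3 or METH rat 4 the FDR in the same test was 0.0909, 0.0789, 0.0590, 0.0881 and 0.0616, and the log2 fold change stayed between 0.53 and 0.70 over the 8 fits that left out 1 rat.

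Per3, the third period gene, was not called. It ranged from 41.8 to 50.7 CPM in saline rats and from 40.4 to 48.1 CPM in METH rats, so that the groups overlapped throughout. The METH mean was 45.2 ± 3.33 CPM (SD, n = 4), at a fitted 100.5% of the saline level, and the log2 fold change of 0.0066 had a 95% interval from -0.19 to 0.21, below the interval of Per1, which ran from 0.54 to 0.93. Its sign turned under total-count and upper-quartile scaling. The distance between Per1 and Per3 inside a library, from which the scaling cancels, was 0.97 ± 0.05 log2 units (SD, n = 4) in saline rats and 1.70 ± 0.19 (SD, n = 4) in METH rats. It lay between 0.91 and 1.04 in the saline rats and between 1.496 and 1.91 in the METH rats, and no test was made of this difference between members.

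The cryptochromes, which encode the partners of PER in the repressor complex, were not called. Cry1 was at 42.0, 34.5, 52.2 and 58.3 CPM in saline rats 1 to 4 and at 54.6, 61.0, 47.5 and 63.6 CPM in METH rats 1 to 4. Saline rats 1 and 2 were the lowest of all 8, as they were for Per2, and saline rats 3 and 4 lay among the METH rats. Cry1 differed by 0.28 on the log2 scale (± 0.15 SE, FDR = 0.488 in the quasi-likelihood test; exact permutation test, two-sided p = 0.2), with a 95% interval from -0.04 to 0.59. Without saline rat 2 it was 0.16, without METH rat 4 it was 0.22, without METH rat 3 it was 0.35 and without saline rat 4 it was 0.40, and the FDR lay between 0.424 and 0.666 over the fits without 1 rat. Cry2 varied least of the 10 genes, from 192 to 214 CPM in saline rats and from 204 to 220 CPM in METH rats. Its log2 fold change was 0.07 (± 0.07 SE, FDR = 0.705 by the same test), with a 95% interval from -0.07 to 0.22.

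The activators of the loop overlapped between the groups. Clock was at 71.5 to 81.2 CPM in saline rats and at 73.1 to 83.4 CPM in METH rats, with a log2 fold change of 0.02 (95% interval -0.15 to 0.19) that turned negative under total-count scaling. Arntl was at 38.3, 35.4, 36.9 and 44.7 CPM in saline rats 1 to 4 and at 37.1, 52.7, 42.9 and 47.9 CPM in METH rats 1 to 4. METH rats 1 and 3 lay within the saline range, and saline rat 4 lay among the METH rats. The means were 38.8 ± 4.10 CPM (SD, n = 4) and 45.1 ± 6.67 CPM (SD, n = 4). Arntl differed by 0.22 on the log2 scale (± 0.12 SE, FDR = 0.490 in the quasi-likelihood test; exact permutation test, two-sided p = 0.171). Without METH rat 2 it was 0.13, without saline rat 2 it was 0.18, without saline rat 4 it was 0.29 and without METH rat 1 it was 0.30. The FDR lay between 0.276 and 0.699 over the fits without 1 rat.

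The genes that CLOCK and BMAL1 drive through E-boxes outside the Per and Cry families were not called. Nr1d1 was at 116, 115, 103 and 78.1 CPM in saline rats 1 to 4 and at 111, 89.6, 92.4 and 67.3 CPM in METH rats 1 to 4. In both groups rat 4 was the lowest, and METH rats 1 to 3 lay within the saline range. The log2 fold change was -0.19 (± 0.15 SE, FDR = 0.641 in the quasi-likelihood test), with a 95% interval from -0.51 to 0.13. This value rested on single rats. It was -0.07 without METH rat 4, -0.13 without saline rat 1, -0.30 without saline rat 4 and -0.31 without METH rat 1, and the FDR lay between 0.395 and 0.875 over the fits without 1 rat. In RefSeq the 3′ end of Nr1d1 shares 1061 bases with Thra, a thyroid hormone receptor gene, and the library kit did not keep the strand, so reads there cannot be assigned to one of the genes with certainty. The same limit may hold for Per2, Clock and Cry2, whose loci overlap long noncoding RNA loci in RefSeq (by 17565 bases for Per2). It may also hold for Cry1, whose locus overlaps a protein-coding one. None of those partners was among the genes tested. All these overlaps, that with Thra included, are of whole gene spans with their introns, and whether exons are shared was not examined. Thra had a log2 fold change of 0.02 (± 0.07 SE, FDR = 0.951 by the same test).

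Nr1d2, the paralog of Nr1d1, was at 133, 143, 155 and 137 CPM in saline rats 1 to 4 and at 149, 128, 118 and 116 CPM in METH rats 1 to 4. Of the METH rats, 3 lay below all saline rats and METH rat 1 lay above 3 of the 4. Nr1d2 had a log2 fold change of -0.15 (± 0.09 SE, FDR = 0.539 in the quasi-likelihood test), with a 95% interval from -0.34 to 0.04. Without METH rat 1 it was -0.23, and it was -0.11 without saline rat 3, METH rat 3 or METH rat 4. The FDR lay between 0.271 and 0.837 over the fits without 1 rat. Dbp, the output factor, was read most often of the 10 genes, with 10090 to 15879 counts per rat. It was at 790, 731, 700 and 653 CPM in saline rats 1 to 4 and at 777, 634, 794 and 532 CPM in METH rats 1 to 4. The METH rats spanned the whole range of the saline rats. The log2 fold change was -0.07 (± 0.11 SE, FDR = 0.843 in the quasi-likelihood test), with a 95% interval from -0.32 to 0.18, and it was 0.03 without METH rat 4 and -0.15 without METH rat 3.

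**Figure D2:**
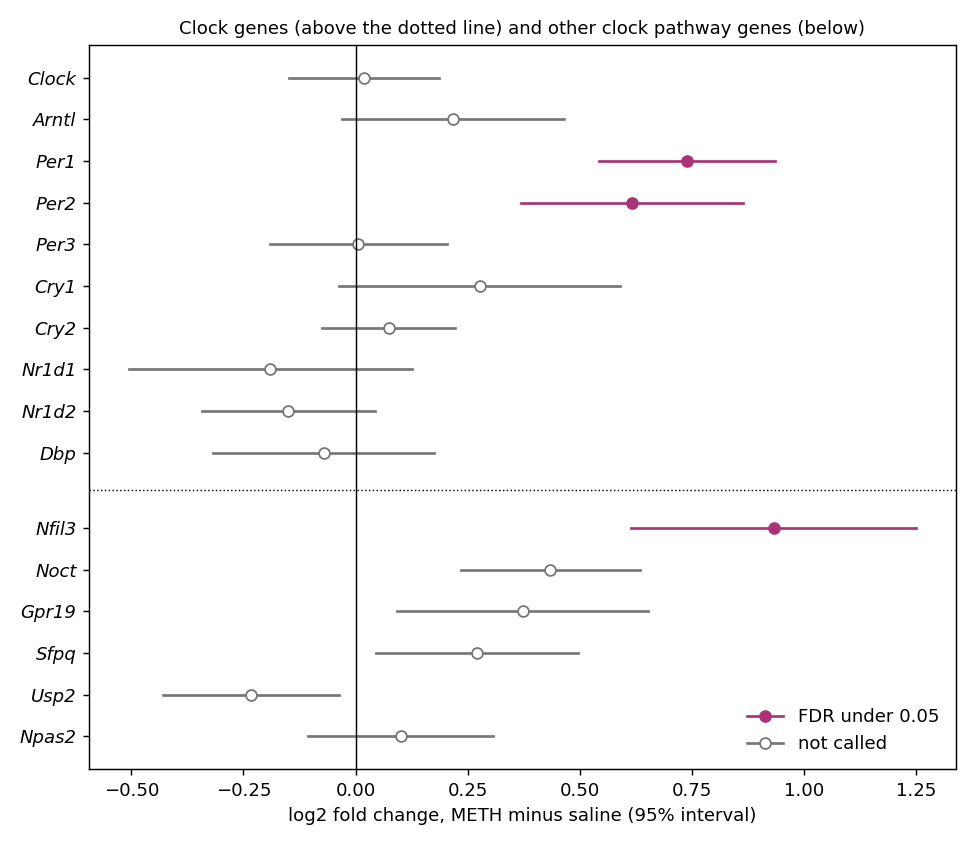
Log2 fold change, METH minus saline (x axis), of the 10 clock genes above the dotted line and 6 other clock pathway genes below it, with 95% intervals from the edgeR quasi-likelihood fit of 4 against 4 rats. Filled points mark FDR below 0.05. The intervals of Per1, Per2 and Nfil3 lie farthest from 0, at 0.74, 0.62 and 0.93, while those of the 8 other clock genes include 0.

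Within a group, several of the genes were highest or lowest in the same rat. Saline rat 4 had the lowest Nr1d1 and Dbp and the highest Arntl, Cry1 and Cry2 of its group. METH rat 4 had the lowest Nr1d1, Nr1d2, Dbp, Per1 and Per2 and the highest Cry1 and Cry2 of its group. Saline rat 3 was highest for Clock, all 3 Per genes and Nr1d2, and saline rat 2 was lowest for Arntl, all 3 Per genes and Cry1. Saline rat 3 was also the lowest of all rats on the first principal component (-24.6). The share of all genes with these orders within a single group was not counted. Nr1d1 and Dbp were thus lowest in rat 4 of both groups, as were 3 of the 25 other pathway genes tested (Tef, Ciart and Cipc), while 4.74% of all genes tested had that order. Cry1 and Cry2 were highest in rat 4 of both groups, as were 4.37% of all genes and 0 of the other pathway genes. Same-numbered rats are different animals.

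**Figure D3:**
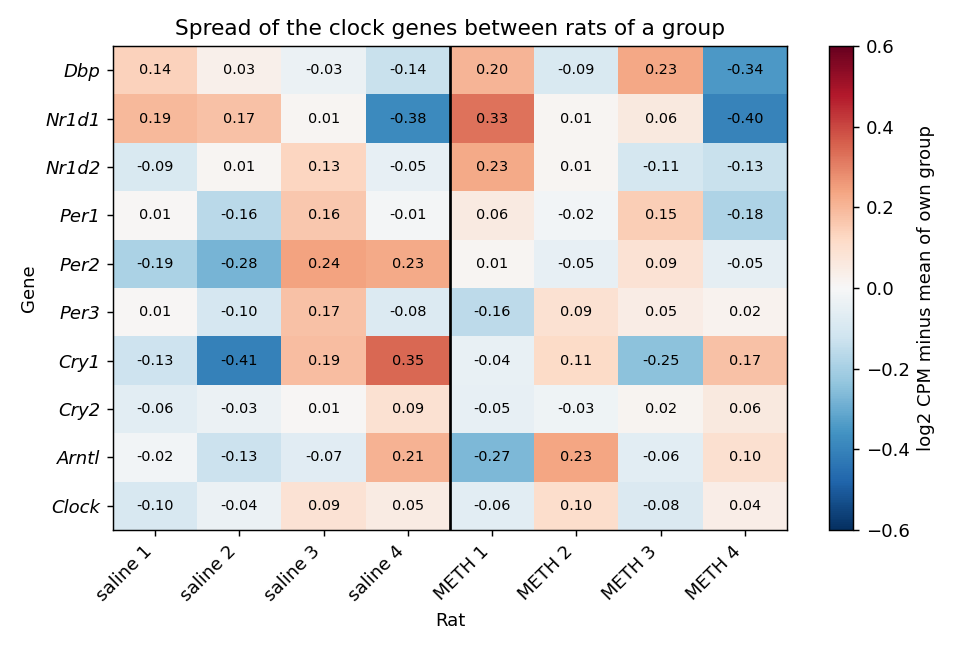
Log2 CPM of each clock gene (rows) in each rat (columns) minus the mean of its own group, so that the difference between the groups is removed. Red is above and blue below the group mean. Nr1d1 was 0.38 below its group mean in saline rat 4 and 0.40 below in METH rat 4, and Dbp 0.14 and 0.34 below.

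Dbp and Arntl are expressed in opposite phases of the day, and the scaling cancels from the distance between them in the same library. It was 4.36, 4.36, 4.24 and 3.86 log2 units in saline rats 1 to 4 and 4.38, 3.59, 4.21 and 3.47 in METH rats 1 to 4. METH rats 2 and 4 lay below all saline rats, while METH rat 3 lay within the saline range and METH rat 1 just above it. The means were 4.21 ± 0.24 (SD, n = 4) and 3.91 ± 0.45 (SD, n = 4), so that the difference of -0.30 was smaller than the SD of the METH rats. The distance between Nr1d1 and Arntl was 1.39 ± 0.40 (SD, n = 4) in saline rats and 0.99 ± 0.47 (SD, n = 4) in METH rats, with the same rats at the low end. As scores made from members, these distances were given no test.

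**Figure D4:**
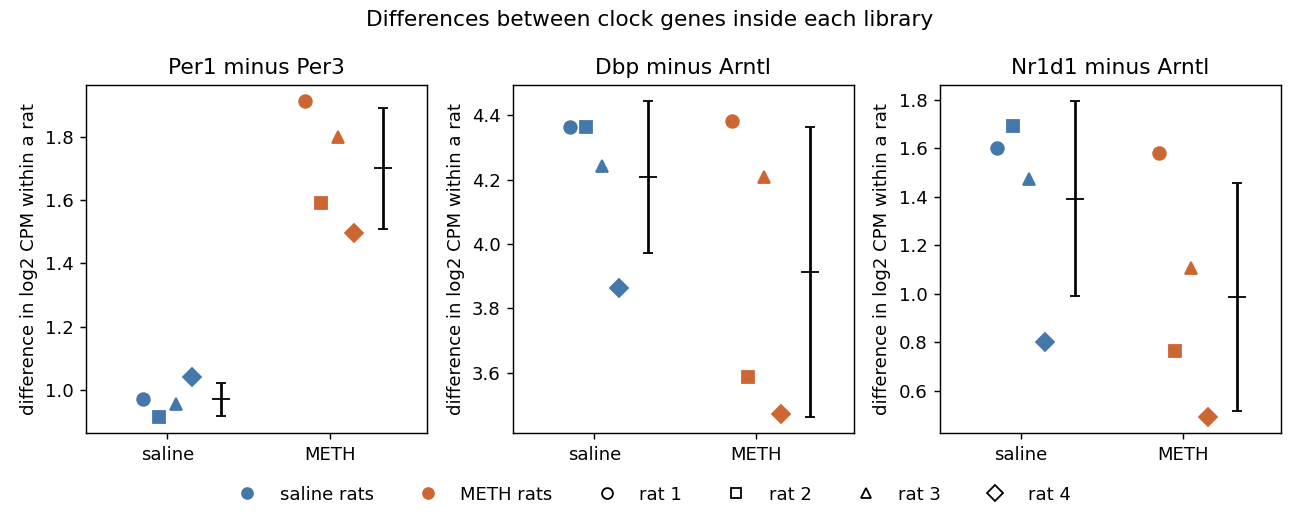
Difference in log2 CPM between pairs of clock genes inside each library (y axis, not starting at 0) for the saline rats (blue) and METH rats (orange), with mean ± SD of 4 rats. Per1 minus Per3 is separate between the groups (0.91 to 1.04 against 1.496 to 1.91), whereas Dbp minus Arntl and Nr1d1 minus Arntl overlap.

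Of 32 further genes of the clock pathway, 27 were listed in the counts and 25 were tested. Of these 25, 1 was called, the gene Nfil3, which rose, and none was called lower, beside 0.516% of all genes called. At an unadjusted p under 0.05, 4 were higher and 1 was lower, beside 6.26% and 4.88% of all genes tested. Their median log2 fold change was -0.0027, and 12 were positive and 13 negative. Nfil3 encodes E4BP4, a repressor that competes with DBP for D-boxes. It was at 8.56, 11.6, 8.69 and 11.2 CPM in saline rats 1 to 4 and at 16.5, 19.4, 22.6 and 18.03 CPM in METH rats 1 to 4. All METH rats were above all saline rats, and the means were 10.01 ± 1.61 CPM (SD, n = 4) and 19.1 ± 2.62 CPM (SD, n = 4). On the log2 scale Nfil3 rose by 0.93 (± 0.15 SE, FDR = 0.00895 in the edgeR quasi-likelihood test), and Nfil3 was called in all 8 fits that left out 1 rat. Tef, a PAR bZIP activator of the same D-boxes, had a log2 fold change of -0.10 (95% interval -0.27 to 0.06).

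Noct, which encodes the rhythmic enzyme nocturnin, was at 35.2 to 40.7 CPM in saline rats and at 44.7 to 56.0 CPM in METH rats, without overlap. Its log2 fold change of 0.43 (± 0.09 SE, FDR = 0.0643 in the quasi-likelihood test) was not called. Noct was called in 3 of the 11 alternatives with all rats. These were the Wald test of DESeq2 (FDR = 0.00329), the edgeR exact test (FDR = 0.00475) and the edgeR likelihood ratio test (FDR = 0.00468). It was also called in 1 of the 8 quasi-likelihood fits that left out 1 rat, the fit without METH rat 2 (FDR = 0.0282). The FDR ranged from 0.00329 to 0.208 over all alternatives. Gpr19, an orphan receptor gene, and Sfpq, an RNA-binding partner of the PER complex, had log2 fold changes of 0.37 (FDR = 0.309) and 0.27 (FDR = 0.368) in the quasi-likelihood test. Their METH rats also lay above all saline rats, but narrowly. The highest saline rat and the lowest METH rat were at 13.1 and 13.3 CPM for Gpr19, and at 173.2 and 173.7 CPM for Sfpq. Usp2, a deubiquitinase gene under clock control, was at 52.5 to 59.3 CPM in saline rats and at 40.9 to 51.8 CPM in METH rats, with a log2 fold change of -0.23 (FDR = 0.377 by the same test). Npas2, a Clock paralog that is abundant in the forebrain, had a log2 fold change of 0.10 (± 0.10 SE, FDR = 0.713 by the same test) and overlapped between the groups. The 8 kinases, ligases and proteases tested, among them Csnk1d and Csnk1e, whose products phosphorylate PER, lay between -0.23 and 0.06, and 0 of them was called (1, Usp2, at an unadjusted p under 0.05).

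The genes whose pattern over the 8 rats was closest to that of Per1, by the root mean square difference of standardised log2 CPM, were Jmjd6 (0.201), Arhgef3 (0.211) and Gpt2 (0.215). Since they were chosen for this likeness, their separation by group is a description. Jmjd6 and Arhgef3 were called, with log2 fold changes of 0.52 (FDR = 0.0359) and 0.64 (FDR = 0.00172) in the quasi-likelihood test, and Gpt2 was not (0.25, FDR = 0.237).

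Over the 11 alternatives that kept all rats, the log2 fold change of Per1 stayed between 0.70 and 0.74 and that of Per2 between 0.58 and 0.63. Per1 was called in each of these 11 fits. Per2 was called in 10 of them.

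**Figure D5:**
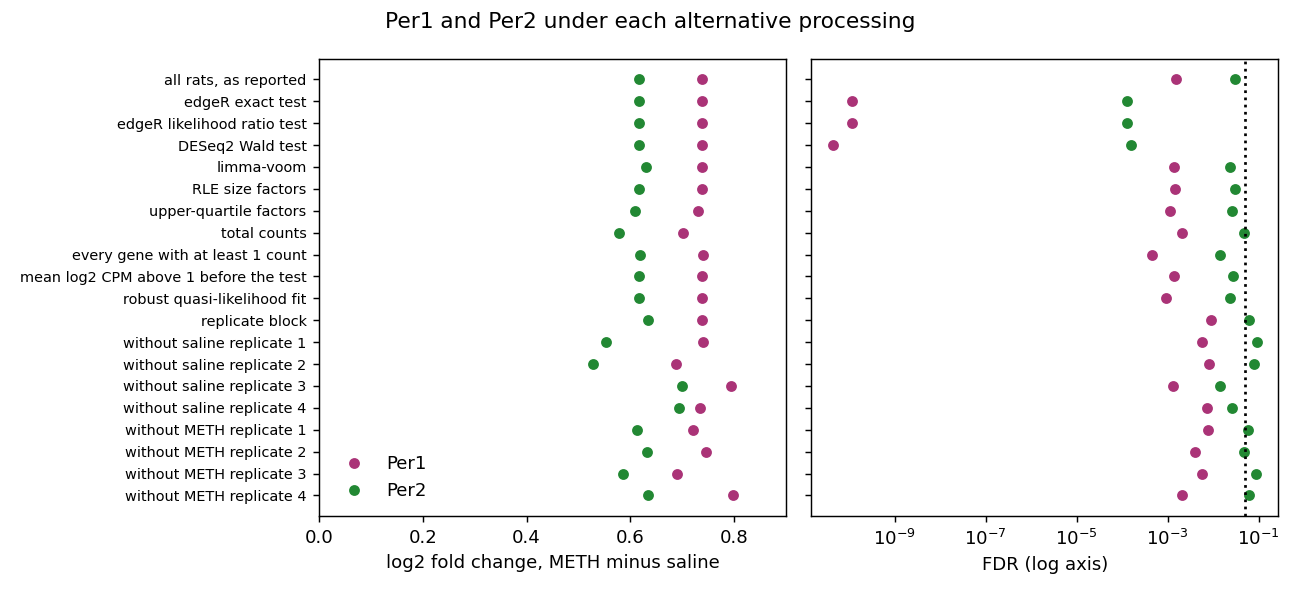
Log2 fold change (left) and FDR on a log axis (right) of Per1 and Per2 as reported and under each alternative test, scaling, filter, replicate block and left-out rat, with a dotted line at an FDR of 0.05. Per1 stays below the line in all of them (highest FDR 0.00890), while Per2 crosses it with the block and without any of 5 rats (highest FDR 0.0909).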

How the data were processed

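Striatal poly(A) RNA of 8 rats was sequenced with paired-end reads, and the authors deposited raw counts per gene symbol, 1 column per rat, without normalization. Per the labels, reads were trimmed with cutadapt 1.18, aligned to rn6 with STAR 2.7.0e and counted with featureCounts of Subread 1.6.4. The gene annotation used, whether counting was stranded and how multi-mapped reads were treated are not given in the sources used here. Columns were assigned by group and rat number.

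Counts were analysed with R 4.3.3 and edgeR 4.0.16, after filterByExpr (minimum count 10) and TMM, by the quasi-likelihood F-test over 12014 genes, with Benjamini-Hochberg adjustment. The study reported differentially expressed genes from its mRNA sequencing but names no test for these mRNA counts. Log2 CPM used a prior count of 2, and the standard error is the fold change divided by the root of F. Alternatives used DESeq2 1.42.0 and limma 3.58.1 as well. All pairs of libraries of one group were more distinct than sampling noise allows (chi-square divided by its degrees of freedom, 10.1 to 27.6). Intervals give the uncertainty of the fitted difference between these 2 groups of rats, and the SDs give the spread between the rats.

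The clock genes, the pathway and marker lists, the named genes (all 10 members, the 5 other pathway genes with the lowest p, Npas2, and the 3 genes closest to the member with the lowest p) and the tests were chosen with earlier results of these data known. Thra was added for its overlap. Rora was to be named too and was not analysed here. Promoters came from RefSeq (GRCr8), in which Arntl is Bmal1. No rn6 coordinates are given.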

Additional observations from a re-analysis of the deposited data

Results flagged for a closer look

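Npas2 in saline rat 1 lay apart from the other saline rats. It was at 128 CPM there and at 109 to 111 CPM in saline rats 2 to 4, a gap of 0.891 of the group's range on the log2 scale and past Dixon's 95% critical value for 4 samples. Saline rat 1 was also the rat with the high summed level of cortical excitatory neuron markers (75.4 CPM), and the part of such cells in the Npas2 value was not tested. Of the 32 groups of 4 rats examined for the members and the other named pathway genes, this was the 1 past that value, while chance gives about 1 in 20.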

How the results depend on the processing

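Per1 and Nfil3 kept their direction and their call under all 11 alternatives with all rats and all 8 with a rat left out, Nfil3 most narrowly with the replicate block (FDR = 0.0499). The number of the 10 clock genes called was 2 as reported and under 10 of the 11 fits that kept all rats, at an FDR under 0.1 and without the threshold on mean log2 CPM. It was 1 with the replicate block, where Per2 was at 0.63 on the log2 scale (FDR = 0.0605), and 1 to 2 with a rat left out. Between saline and METH rats of one number, the departures from the group means correlated at -0.20 to 0.04. Such a correlation cannot show whether a small set of genes, such as the clock genes, shared an order between these rats. Whether the rat numbers pair the animals for the clock genes was not tested. With the block 3 members had an unadjusted p under 0.05 (Per1, Per2 and, lower, Nr1d1), and 37 genes of the whole table were called against 62 as reported. With a rat left out, 2 to 5 members and 4 to 5 other pathway genes had an unadjusted p under 0.05. The 5 members without saline rat 4 were Arntl, Per1, Per2, Cry1 and, lower, Nr1d1, and the 4 without METH rat 1 were Arntl, Per1, Per2 and, lower, Nr1d2. Values near 0 changed sign: Clock was at -0.0160 with total counts and between -0.0165 and 0.0477 with a rat left out, Per3 at -0.00105 with upper-quartile factors, at -0.0299 with total counts and between -0.0270 and 0.0677 with a rat left out, and Dbp between -0.149 and 0.0327. Total counts shifted the median of all genes to -0.0411 from -0.00550. The difference in Dbp minus Arntl stayed between -0.454 and -0.150 with a rat left out. Over the whole table the exact test, the likelihood ratio test and DESeq2 called 168, 170 and 186 genes, and their members called were Per1 and Per2 as well. The causes of these shifts were not tested.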
